A study of Caenorhabditis elegans with 2 samples.

Results

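The genes examined here encode the subunits of the 26S proteasome of Caenorhabditis elegans, and the question put to them was where the GATA-type transcription factor ELT-3 was recovered near their 5′ ends. They were chosen by name: every protein-coding gene of the Ensembl WBcel235 annotation whose name starts with rpn-, rpt-, pas- or pbs-. This gave 33 of 19973 nuclear coding genes, of which 14 encode the core particle (7 alpha-ring and 7 beta-ring subunits), 10 the base and 9 the lid of the regulatory particle. The data are chromatin immunoprecipitation sequencing (ChIP-seq) of 1 group of 2 libraries, biological replicates 1 and 3, from whole mixed-sex L1 larvae of strain OP75. This strain carries the unc-119(ed3) III mutation and the transgene wgIs75, from which tagged ELT-3 is made; the label of replicate 3 adds that the tag is a C-terminal GFP-FLAG fusion. The labels name both elt-3 and eGFP-elt-3 as the target, so the epitope precipitated is not settled. The labels name no promoter for the transgene, no other genotype and no other stage, so no comparison of conditions is possible. The larvae were taken whole, so regions cannot be assigned to a cell type. The lists hold no read counts, and library depth is unknown.

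The proteasome degrades proteins that carry ubiquitin chains. Its core particle is a barrel of stacked rings, in which the outer alpha rings form the gate and the inner beta rings hold the proteolytic sites. The base, with a ring of ATPases (rpt genes) and large scaffold and ubiquitin-receptor subunits, unfolds substrates, and the lid removes their ubiquitin. The subunits are needed in all cells, and the transcription factor SKN-1 raises their expression in worms when proteasome function is impaired. ELT-3 is best known as a factor of the epidermis.

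Around the annotated 5′ end of each gene a window was drawn, reaching 1000 bp upstream and 500 bp downstream, and a region whose summit fell inside was assigned to it. In the submitters' thresholded list, the regions that passed their reproducibility cut, 15 of the 33 subunit genes (45.5%) had a peak, while 9.40% of all coding genes (1878 of 19973) did. A peak in this list need not have a region in both libraries. Of its nuclear peaks, 99.8% overlapped a region of replicate 1 and 58.6% one of replicate 3. The lid had a peak at 6 of 9 genes (66.7%), the beta ring at 4 of 7 (57.1%), the base at 3 of 10 (30%) and the alpha ring at 2 of 7 (28.6%). Taken whole, the particles were close: 6 of 14 core genes (42.9%) and 9 of 19 regulatory-particle genes (47.4%) had a peak. Each of the 15 genes rested on a peak of its own, with no peak serving a pair of subunit genes. The groups are small, and the order among them was not tested, nor was the set set against other genes by a test, since it was proposed with earlier results of these data known.

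**Figure D1:**
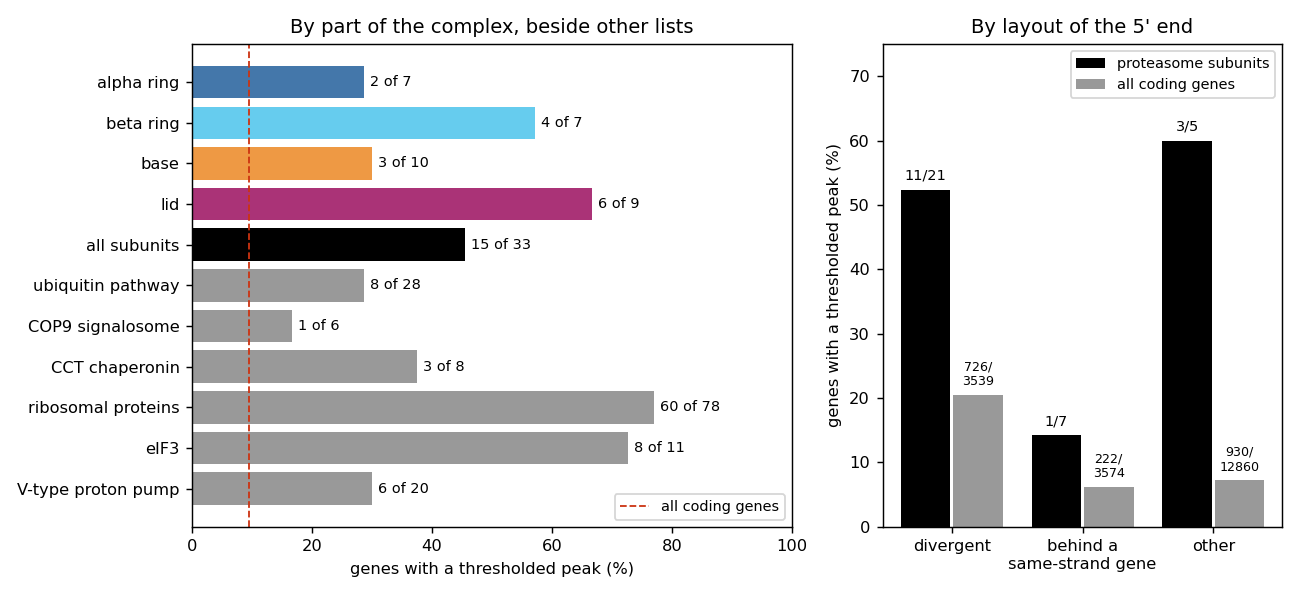
Left, percent of genes with a thresholded peak (x axis) in each part of the proteasome and in 6 other gene lists; counts stand beside the bars and the dashed line marks all coding genes (9.40%). Right, the same percent (y axis) by the layout of the 5′ end, for subunit genes (black) and all coding genes (grey); the lid, 6 of 9, has the highest bar among the parts of the complex.

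The peaks at subunit genes were of ordinary strength. The signal, the peak caller's measure of how strong a region is, ran from 34.3 at pbs-4 to 141.2 at rpn-3 with a median of 51.9. The median was 53.9 over the 1456 thresholded peaks in windows of coding genes, and 6 of the 15 subunit peaks lay above it. The highest rank among them was that of rpn-3, at 150, and the next was that of rpn-11, at 982. All 15 summits lay upstream of the annotated 5′ end, from -13 bp (rpn-11) to -880 bp (pas-5), with a median at -189 bp. For all coding genes with a peak, 91.8% of the strongest summits lay upstream and the median was -237 bp. Between 400 bp upstream and the 5′ end lay 14 of the 15 subunit summits (93.3%), against 64.9% for all coding genes with a peak, a split chosen after the subunit summits had been seen. Many worm transcripts are trimmed and trans-spliced at the 5′ end, so an annotated 5′ end can lie downstream of where transcription starts.

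**Figure D2:**
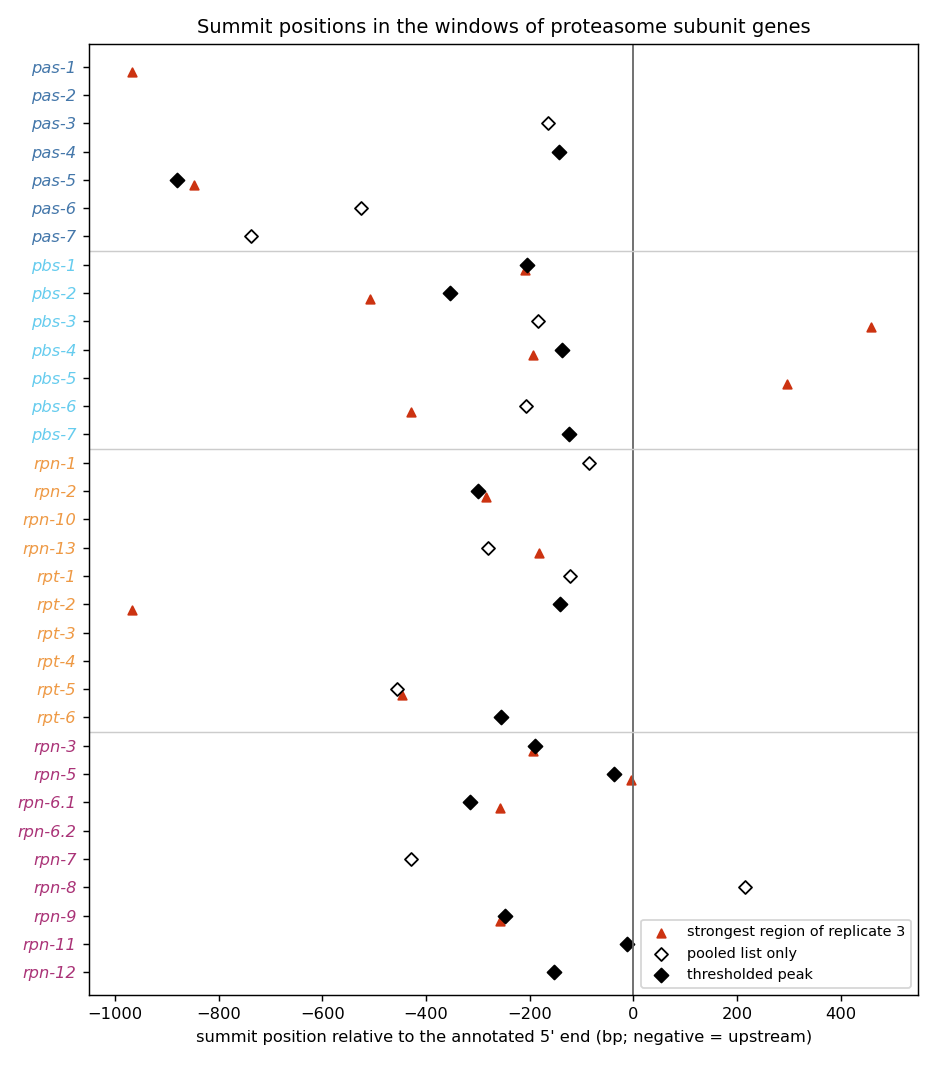
Position of the strongest summit in the window of each subunit gene (rows), in bp from the annotated 5′ end (x axis, negative is upstream). Filled diamonds are thresholded peaks, open diamonds regions of the pooled list only, and triangles the strongest region of replicate 3; 14 of the 15 filled diamonds fall within 400 bp upstream.

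Sequences of 101 bases centred on the summit are shown for 7 subunit genes of the lid and base, since their peaks carry the findings on strength, GATA sites and a shared short word. They were read from the RefSeq copy of WBcel235 (the assembly called ce11 in the deposited lists) and are written along the coding strand of the subunit gene. The windows are chrIII:8447114-8447214 (plus strand) for rpn-3, chrII:4044509-4044609 (minus) for rpn-11, chrIII:6962267-6962367 (minus) for rpn-6.1, chrII:4698415-4698515 (minus) for rpn-5, chrII:11652920-11653020 (plus) for rpn-12, chrV:6017761-6017861 (minus) for rpt-2 and chrIII:6198834-6198934 (plus) for rpn-2. Capitals mark a GATA site (AGATAA or AGATAG, and TGATAA or TGATAG, on either strand) in rpn-6.1 and rpn-2, and the word TGACAAT or its reverse complement in rpn-11, rpn-5, rpn-12, rpt-2 and rpn-2. The rpn-3 sequence holds neither and has no capitals.
rpn-3: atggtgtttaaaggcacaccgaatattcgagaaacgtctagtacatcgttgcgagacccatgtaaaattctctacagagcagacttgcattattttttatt
rpn-11: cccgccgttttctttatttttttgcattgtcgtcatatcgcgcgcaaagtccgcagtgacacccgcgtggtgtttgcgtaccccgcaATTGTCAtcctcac
rpn-6.1: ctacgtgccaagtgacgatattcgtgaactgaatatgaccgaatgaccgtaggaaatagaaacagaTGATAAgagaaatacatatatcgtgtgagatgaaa
rpn-5: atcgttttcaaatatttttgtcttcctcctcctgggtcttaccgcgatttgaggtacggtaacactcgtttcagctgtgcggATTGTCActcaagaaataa
rpn-12: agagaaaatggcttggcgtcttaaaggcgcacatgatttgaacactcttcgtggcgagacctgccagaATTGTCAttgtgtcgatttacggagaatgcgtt
rpt-2: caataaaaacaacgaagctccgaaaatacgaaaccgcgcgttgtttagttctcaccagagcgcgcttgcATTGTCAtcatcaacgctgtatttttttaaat
rpn-2: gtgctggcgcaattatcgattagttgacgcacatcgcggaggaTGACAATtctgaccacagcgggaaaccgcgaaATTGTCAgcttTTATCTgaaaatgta

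In the lid, the strongest peak stood at rpn-3, which encodes a scaffold subunit with a PCI domain. Its signal was 141.2, it ranked 150th in the thresholded and pooled lists, 152nd of 30000 regions in replicate 1 and 1635th of 24854 in replicate 3, with summits at -189 and -193 bp in the replicates. The sequence printed for it holds no GATA, not even the 4 bases alone. The peak (chrIII:8447057-8447253, intergenic) lies between rpn-3 and hsp-110, a chaperone gene of the HSP110 family that starts on the opposite strand.

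The peak of rpn-11, the lid's deubiquitinating enzyme, had a signal of 65.8 and its summit 13 bp from the 5′ end (chrII:4044506-4044617). It ranked 897th in replicate 1, and replicate 3 had no region in the window. The pattern was turned round at rpn-6.1, a PCI subunit that braces the lid against the core: the peak (64.8, chrIII:6962142-6962491) ranked 1347th in replicate 1 and 137th in replicate 3, the highest rank of any subunit gene in that library. Its summit, at -316 bp, lies in an intron of F57B9.1, which starts on the opposite strand. The printed window holds a GATA site 16 bases after the summit.

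The other lid genes with peaks were the PCI subunit genes rpn-5 (57.4, chrII:4698290-4698639), rpn-9 (39.8, chrII:11238992-11239341) and rpn-12 (37.4, chrII:11652795-11653144). In replicate 1 they ranked 1236th, 2571st and 2764th. In replicate 3 rpn-5 and rpn-9 had weak regions at ranks 20769 and 21640, and rpn-12 had none, so these peaks rest mainly on replicate 1. The peak of rpn-5 is shared with scc-1, a cohesin gene, and that of rpn-12 with rad-23, whose product carries ubiquitinated proteins to the proteasome. Of the lid genes without a thresholded peak, rpn-7 had a pooled region of rank 5208 and rpn-8, the catalytically inactive partner of rpn-11, a pooled region of rank 10472 that lay 216 bp downstream of the 5′ end. Neither had a region in replicate 3. The paralogue rpn-6.2 had no region in any list, in contrast to rpn-6.1.

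In the base, the thresholded peaks were at the ATPase genes rpt-2 (signal 63.5, chrV:6017748-6017852) and rpt-6 (48.8, chrIII:12370026-12370375) and at rpn-2 (51.9, chrIII:6198709-6199058), the scaffold on which ubiquitin receptors dock. In replicate 1 they ranked 1021st, 1608th and 1819th. In replicate 3, rpt-6 had no region, rpn-2 had one of rank 9488 at -285 bp, close to the summit at -300 bp, and rpt-2 had one of rank 1692 that lay at -967 bp and did not overlap the peak at -142 bp. Thus only the peak of rpn-2 among these 3 overlapped a region of replicate 3. The rpt-2 summit falls in an exon of the noncoding RNA gene F29G9.10, and those of rpt-6 and rpn-2 are intergenic. The printed window of rpn-2 holds a GATA site 36 bases after the summit and the word TGACAAT both before and after the summit position.

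Among base genes without a thresholded peak, rpt-5, another ATPase gene, lay just under the cut. Its strongest pooled region had a signal of 30.7 (rank 3403), its replicate 1 region ranked 4431st and its replicate 3 region 617th, with summits at -456, -488 and -446 bp. The thresholded list's lowest nuclear signal was 34.2, and pbs-4, at 34.3, was the subunit gene just inside it. The ubiquitin-receptor gene rpn-13 (pooled rank 3827) followed rpt-5. Weaker pooled regions stood at rpt-1 (rank 6138) and the scaffold gene rpn-1 (rank 26692), and neither had a region in replicate 3. The ATPase genes rpt-3 and rpt-4 and the receptor gene rpn-10 had no region in any list. Thus 3 of the 10 base genes had a peak, where 9.40% of all coding genes had one. Another 3 had no region in any list, where 39.9% of all coding genes had none.

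In the core, the beta ring had more peaks than the alpha ring. Its 4 peaks were at pbs-1 (signal 52.9, chrIV:1709901-1709995), pbs-2 (45.2, chrI:12968458-12968807), pbs-7 (42.6, chrI:8696250-8696599) and pbs-4 (34.3, chrI:3908435-3908784). The genes pbs-1 and pbs-2 encode proteolytic subunits, and pbs-7 and pbs-4 structural ones. Their ranks in replicate 1 were 1690, 1929, 1970 and 3210. In replicate 3, pbs-1 had a region of rank 10201, pbs-2 of rank 2820, pbs-4 of rank 17474, and pbs-7 had none. The gene of the chymotrypsin-like subunit, pbs-5, had no pooled or replicate 1 region, and a replicate 3 region of rank 11373 at 296 bp downstream of the 5′ end. The structural genes pbs-3 and pbs-6 had pooled regions of rank 3880 and 9203. In all, 6 of the 7 beta-ring genes had some region in the full replicate 3 list, where 35.4% of all coding genes had one, but only pbs-2 had one among that library's strongest regions.

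The alpha ring had peaks at pas-4 (signal 56.3, chrI:8728455-8728804) and pas-5 (46.1, chrI:10565295-10565644). The pas-4 peak ranked 1225th in replicate 1 and had no counterpart in replicate 3. Its summit lies in an exon of the noncoding RNA gene C36B1.16. The pas-5 peak ranked 2298th in replicate 1 and 381st in replicate 3, the second-highest replicate 3 rank among subunit genes, but its summit lay at -880 bp, farther than any other. Pooled regions were found at pas-3 (rank 4011), pas-7 (17448) and pas-6 (24545). At pas-1 only the replicate lists had a region, of rank 16403 in replicate 1 and 16584 in replicate 3, with summits at -814 and -968 bp. At pas-2 no list had any.

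**Figure D3:**
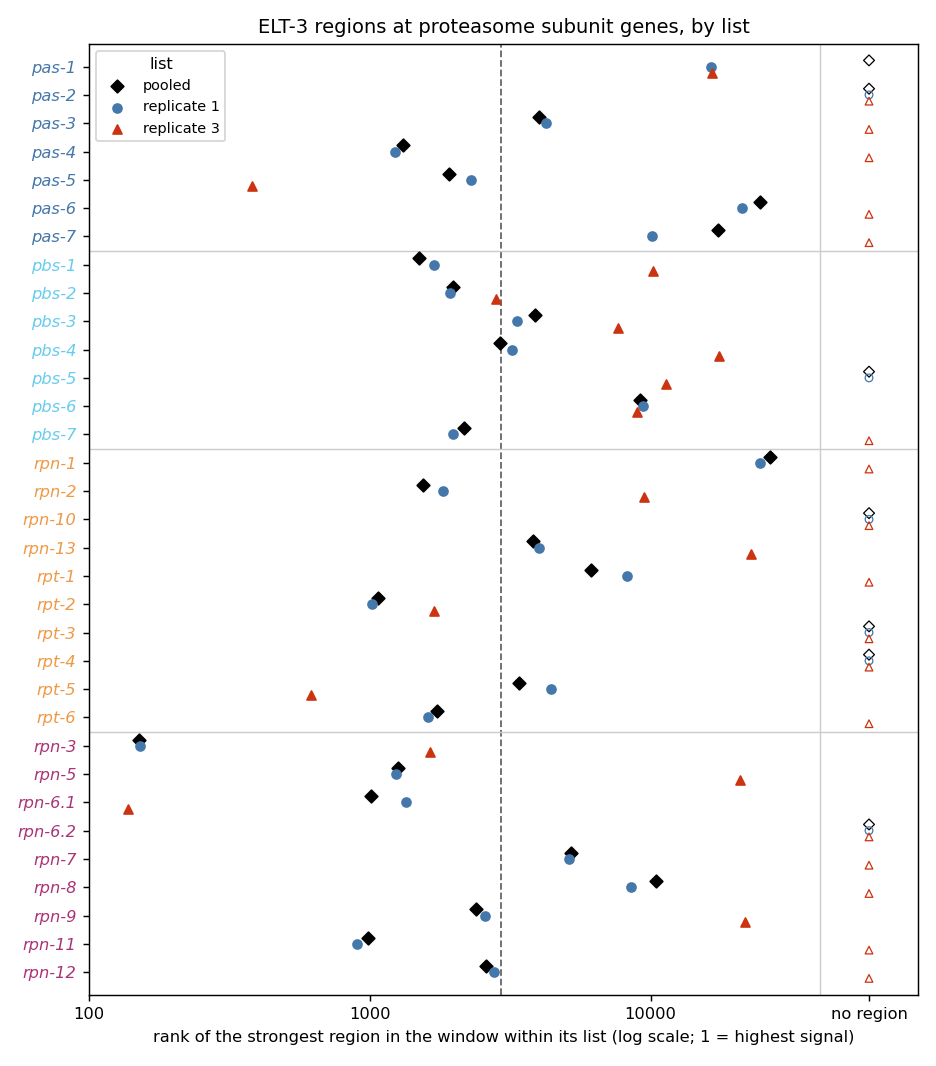
Rank of the strongest region in each subunit gene's window within the pooled list (diamonds), replicate 1 (circles) and replicate 3 (triangles), on a log axis where rank 1 is the highest signal; open symbols at the right mean no region, and the dashed line marks the length of the thresholded list. Diamonds and circles run together, while triangles scatter, with rpn-6.1 (137), pas-5 (381) and rpt-5 (617) highest in replicate 3.

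The libraries differed in how far they covered the complex. In the full list of replicate 1, 27 of 33 subunit genes (81.8%) had a region, with 41.5% of all coding genes, and in that of replicate 3, 16 of 33 (48.5%) with 35.4% of all coding genes. In the pooled list it was 26 of 33 (78.8%) with 41.6%. Both replicates had a region somewhere in the window of 15 subunit genes (45.5%) and of 19.1% of coding genes. The regions need not overlap. In replicates 1 and 3 the summits lay at -155 and 458 bp for pbs-3, and at -142 and -967 bp for rpt-2. These 15 are not the same genes as the 15 with a thresholded peak, since pas-1 is among them. When each replicate was cut to as many of its strongest regions as the thresholded list holds, replicate 1 reached 14 subunit genes (42.4%, all coding genes 9.42%) and replicate 3 reached 6 (18.2%, all coding genes 5.87%). These 6 were pas-5, pbs-2, rpt-2, rpt-5, rpn-3 and rpn-6.1. The lid lead also rested on replicate 1: its strongest regions reached 6 of 9 lid genes and 3 of 10 base genes, and those of replicate 3 reached 2 of 9 and 2 of 10. All 15 thresholded subunit peaks overlapped a region of replicate 1 and 9 (60.0%) one of replicate 3, much as 58.4% of all peaks in coding windows did. The labels give CGC as the source of the replicate 1 worms and a laboratory for replicate 3, and they record fragmentation differently. Whether these or library depth bear on the difference was not tested.

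**Figure D4:**
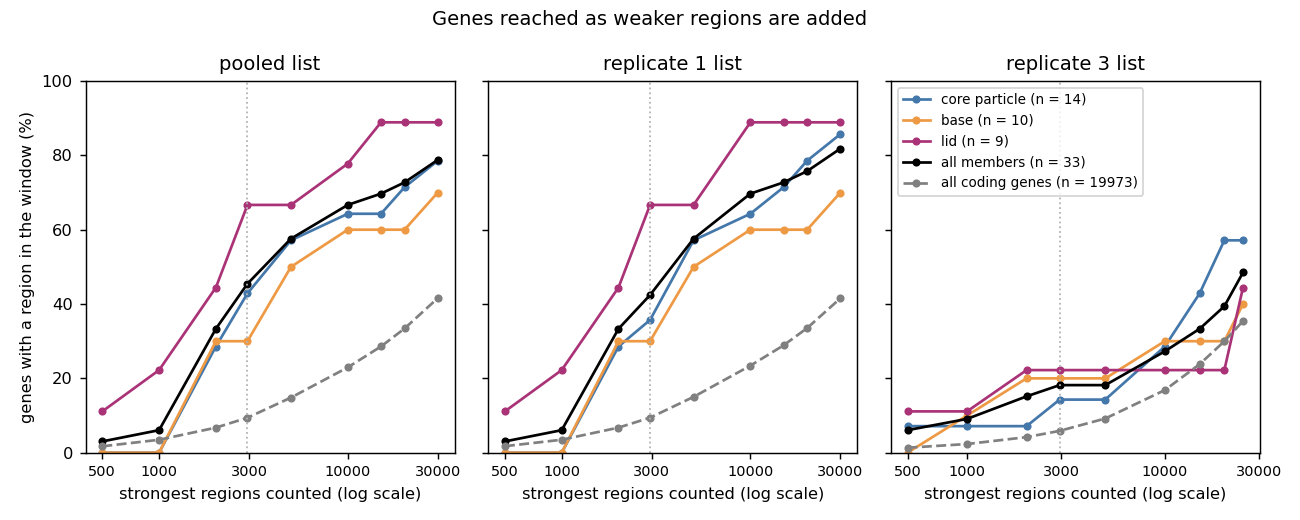
Percent of genes with a region in the window (y axis) as more of each list's strongest regions are counted (x axis, log scale), for the core, base and lid, all 33 subunit genes and all coding genes (dashed); the dotted line marks the length of the thresholded list. At the dotted line the subunit genes stand at 45.5% in the pooled list, 42.4% in replicate 1 and 18.2% in replicate 3.

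Most subunit peaks were shared with a gene that starts on the other strand. For 11 of the 15 (73.3%) the summit also lay in the window of an opposite-strand coding gene, against 44.2% (830 of 1878) for the strongest peaks of all coding genes with a peak. Besides hsp-110, scc-1 and rad-23, the partners included rpb-3, an RNA polymerase II subunit gene (with pas-4), eif-6, a ribosome assembly factor gene (with pbs-2), and aps-1, a clathrin adaptor gene (with rpt-2). The others, C23G10.7, K08D12.3, F39H11.1, T06D8.9 and F57B9.1, share the peaks of rpn-2, pbs-1, pbs-7, rpn-9 and rpn-6.1. By distance, the summit was nearer to the partner in the case of pas-4 (-134 bp from rpb-3, -143 bp from pas-4), pbs-2 (-313 bp from eif-6, -353 bp from pbs-2) and rpn-6.1 (227 bp inside F57B9.1, -316 bp from rpn-6.1). A shared peak does not say which of the genes, if any, it bears on.

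The share of genes with a peak differed with the layout of the 5′ end, and subunit genes were often divergent; these layouts were defined after the subunit peaks had been seen. Of the 33, 21 had an opposite-strand coding 5′ end within 1000 bp upstream, where 3539 of all 19973 coding genes had one. A peak stood at 11 of these 21 (52.4%) and at 20.5% of the 3539 divergent coding genes. The same 11 are the subunit genes whose peak was shared with an opposite-strand gene. Among all coding genes with a peak, 726 of 1878 were divergent. Divergent genes were classed first, whatever lay before them on their own strand, and rpn-6.2, which also starts 54 bp behind a same-strand gene, is among them. Of the 7 other genes that start within 500 bp behind the end of a same-strand gene, only rpn-11 had a peak (14.3%, all such coding genes 6.21%). The 6 of this class without a peak were pas-1, pbs-3, pbs-5, rpn-10, rpn-13 and rpt-3. Such closely spaced genes can belong to worm operons, which are transcribed from a promoter farther upstream, but operons are not annotated in the files used here. Of the 5 remaining genes, pas-5, pbs-4 and rpt-6 had a peak and rpt-1 and rpt-4 did not (60.0%, all such coding genes 7.23%). In each layout the share of subunit genes was above that of coding genes with the same layout, but behind a same-strand gene this rests on rpn-11 alone. Whether layout bears on the share of subunit genes with a peak was not tested. No subunit gene lies on chromosome X, which holds 13.7% of coding genes.

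GATA sites, the sequence that factors of the ELT family recognise, were not frequent at the subunit summits. A site, as spelled out beside the sequences, lay within 50 bp of 3 of 15 summits (20%, exact binomial 95% interval 4.3 to 48, for counting error only): those of rpn-6.1, rpn-2 and pbs-7. The share was 28.3% at all 1456 peaks in coding windows and 34.8% at all 2916 nuclear peaks, both within that interval. The 4 bases GATA alone were found at 6 of 15 (40.0%) against 51.1% and 57.1%. Of the other short words, GAGAGA and ACGCAG were chosen with earlier results of these data known, so their counts are a description only. GAGAGA was at none of 15, with 21.5% at coding-window peaks and 25.1% at nuclear peaks. The first share lies within the exact binomial 95% interval of that count (upper limit 21.8%) and the second above it. For a word so chosen, the interval is no test. The word ACGCAG was at rpn-9 alone (6.67% against 15.3%). In promoter windows of 300 bases, 250 before the 5′ end and 50 after it, a GATA site was present at 51.5% of subunit genes and 54.5% of all coding genes. It was present at 9 of the 15 genes with a peak and 8 of the 18 without.

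The core of the SKN-1 site, ATCAT or GTCAT on either strand, lay within 50 bp of 8 of 15 subunit summits (53.3%), against 35.5% of coding-window peaks and 40.7% of nuclear peaks. Within 100 bp it was at 14 of 15 (93.3%) against 55.2% and 62.0%. GC content was 42.4% at the subunit summits and 44.0% at coding-window peaks within 50 bp, and 36.1% and 40.5% within 100 bp, and its part in these shares was not tested. In the 300-base promoter windows, all 15 genes with a peak held it, as did 13 of the 18 without (72.2%), with 72.1% of all coding genes. Over all coding genes the core did not go with peaks: 68.5% of coding genes with a peak held it. A match describes the sequence and does not show that SKN-1 binds there.

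A longer word, TGACAAT, was picked out after the subunit summits had been seen, so its counts there are a description only. It occurred within 50 bp of 5 of 15 summits (33.3%), those of rpn-11, rpt-2, rpn-5, rpn-2 and rpn-12, 6 times in all, and at 2.01% of the 1441 peaks in windows of other coding genes and 1.85% of nuclear peaks. All 5 genes encode parts of the regulatory particle, as do 9 of the 15 genes with a peak, and the word is in capitals in their printed sequences. Within 100 bp it was at 6 of 15 summits (40%), against 3.54% of peaks in windows of other coding genes and 3.64% of nuclear peaks. In 4 of its 6 places it overlaps ATCAT or GTCAT, so the counts of these words are not separate. In the promoter windows it was present at 8 of 33 subunit genes (24.2%; pas-2, pbs-1, pbs-6, rpt-2, rpt-5, rpn-5, rpn-11 and rpn-12) and at 6.30% of all coding genes. At rpn-5, rpn-11, rpn-12 and rpt-2 the promoter window takes in the word already counted at the summit, so the promoter count is not a separate observation. Of these 8, pas-2, pbs-6 and rpt-5 had no thresholded peak. Over all coding genes the word went with no more peaks: 6.02% of coding genes with a peak held it.

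Genes that work with the proteasome carried peaks less often than its subunits but included stronger ones. Of 28 genes for ubiquitin, ubiquitin shuttles, proteasome partners and the CDC-48 unfoldase, 8 (28.6%) had a thresholded peak, with a median signal of 85.3. The highest were at cdc-48.1 (446.4, rank 4), the unfoldase itself, ubql-1 (273.8), a ubiquilin shuttle, ecps-1 (118.8), the relative of a proteasome-binding scaffold, and ufd-3 (91.5), a CDC-48 cofactor. The rest were at ubq-2 (79.1), which encodes ubiquitin fused to a ribosomal protein, the proteasome-bound deubiquitinase genes ubh-4 (52.6) and usp-14 (35.5), and rad-23, through the peak it shares with rpn-12. The COP9 signalosome, built on the same plan as the lid, had a peak at 1 of 6 genes, csn-1 (40.6). The translation factor eIF3, which also shares that plan, had peaks at 8 of 11, the CCT chaperonin at 3 of 8, the V-type proton pump at 6 of 20 and ribosomal proteins at 60 of 78. The median signals of the last 4 were 62.3, 140.5, 57.9 and 79.5, each above the 51.9 of the proteasome peaks. Among the strongest regions of replicate 3 alone, where all coding genes stood at 5.87%, the shares were lower: 10.7% for the pathway genes, 18.2% for eIF3, 25% for the CCT chaperonin, 5% for the proton pump and 30.8% for ribosomal proteins. In those of replicate 1, where all coding genes stood at 9.42%, they were 28.6%, 63.6%, 50%, 30% and 74.4%. The COP9 signalosome had 1 of 6 in each. Differences between these lists were not tested.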

How the data were processed

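The 2 libraries form 1 group. Per the deposited manifest, regions were called for each library, and for both pooled, against a shared control file, and the thresholded list was derived from those lists. Neither aligner, peak caller nor cut is given in the sources used here. Per the deposited files, each list gives every region's signal on a scale that differs between lists, so ranks within a list are compared, and −log10 of its q-value, which the authors' thresholded list holds at a single value and which ranks nothing here. Only the ce11 lists were used. Coding genes and 5′ ends of the longest extent came from Ensembl release 115 (WBcel235), sequence from the RefSeq copy of that assembly. A summit could count for several genes, and mitochondrial regions were left out. The members and gene lists were chosen with earlier results of these data known, so shares are given beside those of all coding genes without tests. Every subunit gene is named, as is each gene of the pathway list with a peak. Base membership of rpn-10 and rpn-13 follows common usage. Alternatives were other windows, peak sets, 5′ ends and each replicate alone. The computations used Python 3.11.15, numpy 2.4.6, pandas 2.3.3, scipy 1.17.1 and matplotlib 3.10.9, and the assignment of summits to genes was tested on simulated data.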

Additional observations from a re-analysis of the deposited data

How the results depend on the processing

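The count of 15 subunit genes with a peak stayed at 15 when the window began 2000 bp upstream, when any overlap of the peak counted, and when the 5′ end of every coding transcript was used. It was 14 when the window was narrowed to 500 bp upstream and 250 bp inside, where pas-5 was lost and the alpha ring fell to 1. It was 12 when each summit went to the nearest coding 5′ end only, which took away pas-4, pbs-2 and rpn-6.1 and also left the alpha ring at 1. With only the thresholded peaks above the list's median signal it was 6, with 1 in the alpha ring, 0 in the beta ring, 1 in the base and 4 in the lid, where all coding genes stood at 5.01%. With only peaks that overlap a region in each replicate it was 9, with 1 in the alpha ring, 1 in the base, 3 in the beta ring and 4 in the lid, and all coding genes at 5.47%. Leaving out either replicate gave 6 to 14 subunit genes, 1 to 2 in the alpha ring, 1 to 3 in the beta ring, 2 to 3 in the base and 2 to 6 in the lid, the low values coming from replicate 3 alone. The cause of that gap was not tested. The share of subunit summits with a GATA site was 26.7% within 100 bp, against 44.2% at coding-window peaks and 53.0% at nuclear peaks, and 40.0% for the 4 bases alone, against 51.1% and 57.1%. Within 100 bp the site was at 4 of 15 summits, with an exact binomial 95% interval of 7.8 to 55.1 for counting error only. Both 44.2% and 53.0% lie within that interval, so no wider gap than within 50 bp is read from these counts. Depth is unknown, so absence of a region at a gene is a limit of these lists and does not show that ELT-3 was absent there.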

Other observations

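Among the 105 pairs of subunit summits, 5 shared a run of 12 or more bases within their 101-base windows, on either strand. The runs of 14 bases joined pas-4 with pbs-2, pas-4 with rpn-5, and pbs-4 with rpn-3. The run shared by pas-4 and rpn-5 occurs 10 times in the nuclear genome, and 7 thresholded summit windows hold it. The run of pbs-4 and rpn-3 occurs 3 times, and no summit beyond those 2 holds it. The run of pas-4 and pbs-2 occurs 41 times, with 5 summits. The run of 13 bases shared by rpn-11 and rpn-2 occurs 12 times, with 2 summits, and that of 12 bases shared by rpn-12 and rpn-2 occurs 28 times, with 2 summits. Both of these last runs contain the word TGACAAT already counted at these summits, so they are not separate observations. These runs were sought after the windows had been seen and no test was made.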
